A study of Mus musculus with 4 samples.

Results

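Rac1, Rac2, Rac3, Rhog, Cdc42, Rhoj, Rhoq, Rhou and Rhov are the 9 genes of the Rac and Cdc42 subfamilies of small GTPases examined here, out of 18193 genes measured. Their members were every probe set whose annotation gives 1 of these symbols and no other, which are 16 of 45037 probe sets. Where a gene has several probe sets, the one with the highest mean leads and the others are given beside it. The family was chosen with results of these arrays in view: Rac3 had been picked out on the difference between retroviruses, so the family's values for that difference are given as a description, with no p-value for any member and with 1 count of calls from which nothing is read. Tests of the members are given only for the difference between clones, on which the other members were not chosen. The study ranked genes by a t statistic that measures consistency between the clones. A small clone difference of Rac3 was therefore favoured in advance.

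The cells were mammary epithelial cells of Deaf-1-/- female mice aged 8 weeks, immortalised with a retrovirus that encodes the E6 and E7 proteins of human papilloma virus 16. Clones E1 and C1 of these cells were each infected with a retrovirus expressing Deaf-1, a DNA-binding transcription factor, or with the empty control retrovirus, and then selected in puromycin for 48 hours. Each of the 4 combinations was hybridised to 1 Affymetrix mouse array, in which a group of short oligonucleotides, the probe set, reads 1 transcript. Deaf-1 cells (E1 and C1) therefore regain a factor that control cells (E1 and C1) lack, and all groups carry the same deletion and the same viral oncoproteins. Each clone is a single line, both may come from 1 mouse, and each p-value below measures only the spread among these 4 arrays. For the retroviruses, with clone not in the model, that is the spread between clones. For the clones, with retrovirus in the model, it is how far the difference between clones changed with the retrovirus.

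All levels are deposited log2 values made by RMA, which corrects background, brings arrays to a common distribution and summarises each probe set. A probe set was called above background where its mean exceeded 3.774, the 95th percentile of the values of 44 olfactory receptor probe sets, and 50.6% of probe sets did. Array medians ran between 3.77 and 3.87, and arrays correlated at 0.992 (E1) and 0.994 (C1) within a clone and between 0.976 and 0.983 across clones. Deaf1 read 6.25 (E1) and 6.73 (C1) with Deaf-1, against 4.91 (E1) and 5.01 (C1) in control cells, in the direction of the labels. The control level lay above background, and whether the probe set reads the deleted part of the gene was not examined. Of 6 luminal markers, Krt8, Krt18, Cdh1 and Cldn7 lay below background by their means and Epcam and Krt19 above it. Krt8 read 4.01 and 3.84 in E1 (Deaf-1 and control), above the level, against 3.46 and 3.57 in C1. Of 6 basal markers, 4 lay above it, with Acta2 at 11.64 and Krt5, Itgb4 and Trp63 at 4.56 or less, and Krt14 and Krt17 lay below it. All 6 fibroblast markers lay above it, with Col3a1 at 13.49. By their means most luminal markers thus went against the epithelial label, and the cells are called by their clone names. In such bulk RNA, fewer cells of a type and less RNA per cell cannot be told apart.

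These GTPases are small proteins that switch between an active form bound to GTP and an inactive form bound to GDP. Exchange factors load GTP, GTPase-activating proteins end the signal, and dissociation inhibitors hold the inactive form in the cytosol. Active Rac proteins drive sheet-like membrane ruffles through the WAVE and Arp2/3 complexes, while active Cdc42 drives finger-like protrusions and sets cell polarity, both partly through p21-activated kinases. In mammary epithelium Rac1 is known for its part in polarity of the acinus and in milk production. These proteins are controlled to a large extent after translation, which arrays of RNA do not read.

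Deaf-1 binds DNA at sites with a TTCG core, so the bases before each gene's start were searched for TTCG on both strands. RefSeq promoter windows of GRCm38.p6 were found for 7 of the 9 genes, and not for Rac1 and Rac2. In the 250 bases before the start, Rac3, Cdc42, Rhog, Rhou and Rhov each held 1 match, Rhoq held 2 and Rhoj held 0. Of 32851 such windows, 38.7% held at least 1 match and 12.5% at least 2. The windows of 3 genes are shown, 5′ to 3′ on the gene's strand with matches in capitals (TTCG, or CGAA where the match is on the other strand). By leading probe sets, Rac3 had the largest difference between retroviruses of the family. Rhoj had the next largest mean difference by leading probe sets and no match, and Rhoq had the most matches.
Rac3, chr11:120721218-120721467, plus strand: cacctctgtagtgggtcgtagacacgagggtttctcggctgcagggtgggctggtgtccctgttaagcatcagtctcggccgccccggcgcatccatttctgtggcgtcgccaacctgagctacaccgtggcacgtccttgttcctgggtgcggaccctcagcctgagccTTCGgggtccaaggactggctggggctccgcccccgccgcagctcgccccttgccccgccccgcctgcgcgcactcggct
Rhoj, chr12:75308063-75308312, plus strand: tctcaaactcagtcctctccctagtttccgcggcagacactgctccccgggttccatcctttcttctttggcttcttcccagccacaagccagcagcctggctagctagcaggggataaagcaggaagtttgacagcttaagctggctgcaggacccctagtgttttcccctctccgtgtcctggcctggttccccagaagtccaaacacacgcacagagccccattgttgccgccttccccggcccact
Rhoq, chr17:86962861-86963110, plus strand: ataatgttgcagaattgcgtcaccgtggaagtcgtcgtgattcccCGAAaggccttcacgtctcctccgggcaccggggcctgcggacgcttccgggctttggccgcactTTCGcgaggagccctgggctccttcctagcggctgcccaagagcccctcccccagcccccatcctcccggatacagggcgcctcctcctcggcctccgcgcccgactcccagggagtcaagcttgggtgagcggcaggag
The match of Rac3 began 80 bases before the start, and those of Rhoq 205 and 140 bases before it. The GC content of the windows was 68.4% for Rac3, 58.0% for Rhoj and 67.2% for Rhoq, against a median of 52.4% over all windows. A match of 4 letters is a description of the window and not a binding site.

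Rac3, a Rac protein best known from the nervous system that shares effectors with Rac1, stood higher in Deaf-1 cells of either clone. Its only probe set, 1420554_a_at, read 5.46 (E1) and 5.44 (C1) with Deaf-1, against 4.69 (E1) and 4.76 (C1) in control cells. Both Deaf-1 arrays stood above both control arrays, and within each retrovirus the clones lay closer to each other than the retroviruses did. The group means were 5.45 ± 0.011 with Deaf-1 and 4.72 ± 0.051 in control cells (SD, n = 2 each). The difference was 0.77 on the log2 scale in E1 (1.71-fold) and 0.68 in C1 (1.61-fold), a mean of 0.73 (1.65-fold). By mean difference Rac3 stood 10th from the top of 45037 probe sets and 6th of the 3457 above background that were higher in both clones. Its choice on this contrast favoured high ranks and close clones in advance, so both are a description. The family has 1 of 16 probe sets at an unadjusted p under 0.01 by limma, where 0.0111% of all probe sets (5 of 45037) and 0.0275% of leading probe sets reached that mark, and since Rac3 was chosen on this contrast nothing is read from that count. With 2 arrays against 2, the smallest p of an exact two-sided permutation test is 0.333.

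**Figure D1:**
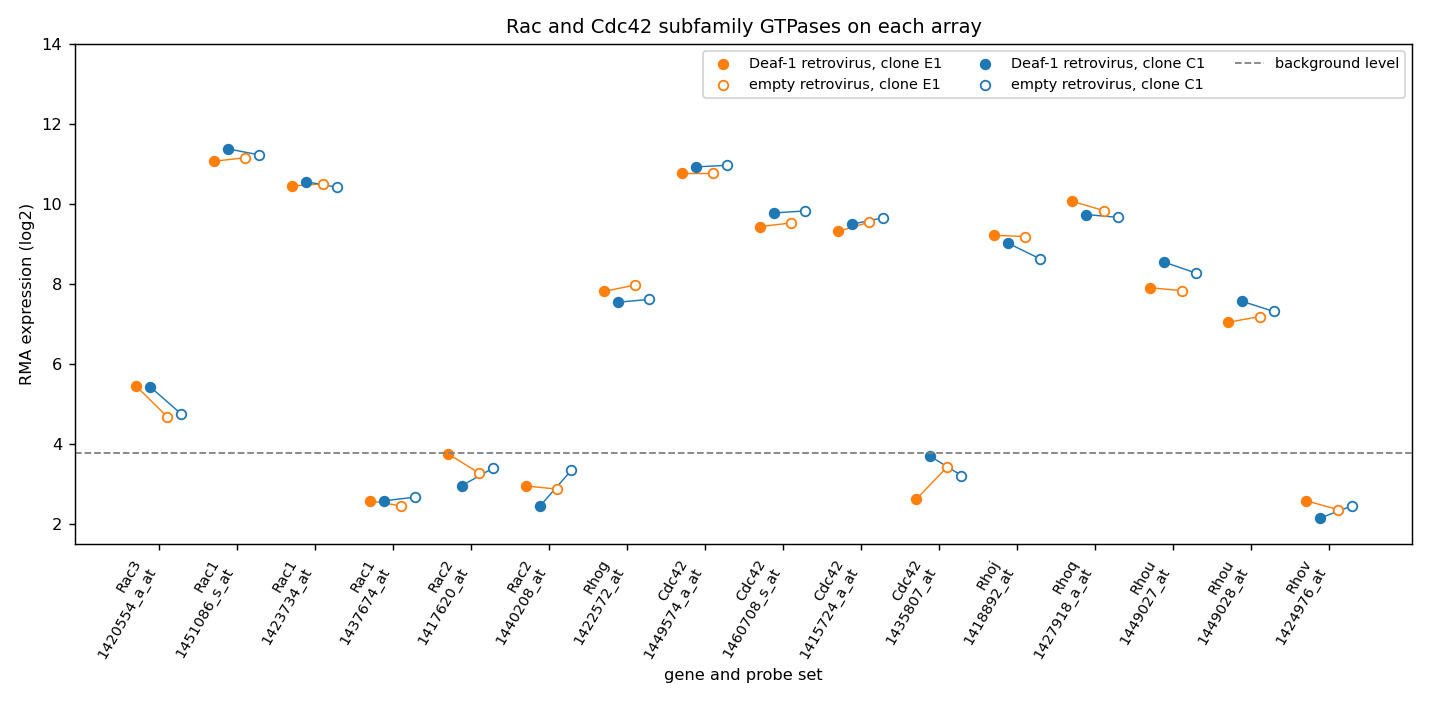
RMA expression (log2, y axis) of the 16 member probe sets (x axis) on each of the 4 arrays, with filled points for the Deaf-1 retrovirus on the left, open points for the empty retrovirus on the right, and a line joining the arrays of a clone; the dashed line is the background level of 3.774. Rac3 is the member whose Deaf-1 arrays stand clear above its control arrays in both clones, and 5 probe sets lie below the dashed line.

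The other Rac genes did not share this pattern. Rac1, the Rac protein present in nearly all cells, read 11.07 (E1) and 11.38 (C1) with Deaf-1, against 11.16 (E1) and 11.23 (C1) in control cells by its leading probe set 1451086_s_at. It was lower with Deaf-1 in E1 (-0.094) and higher in C1 (0.15), so the retroviruses overlapped. A further Rac1 probe set, 1423734_at, had differences of -0.062 in E1 and 0.14 in C1, and the third, 1437674_at, lay below background. Rac2, which serves the oxidase of blood cells, lay below background by both of its probe sets, with 3.76 (E1) and 2.97 (C1) with Deaf-1 against 3.28 (E1) and 3.41 (C1) in control cells for 1417620_at. Rhog, which reaches Rac through the Elmo and Dock exchange factors, read 7.82 (E1) and 7.55 (C1) with Deaf-1, against 7.98 (E1) and 7.62 (C1) in control cells. Its differences of -0.16 in E1 and -0.073 in C1 had the same sign, but the retroviruses overlapped.

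Of the Cdc42 side of the family, Cdc42 itself, the polarity GTPase, had values that the retroviruses shared. Its leading probe set 1449574_a_at read 10.77 (E1) and 10.93 (C1) with Deaf-1, against 10.77 (E1) and 10.97 (C1) in control cells, a mean difference of -0.018 that turned to 0.021 after a further quantile normalization. A dimmer Cdc42 probe set, 1415724_a_at, was lower in both clones, with 9.32 (E1) and 9.50 (C1) with Deaf-1 against 9.55 (E1) and 9.66 (C1) in control cells. That probe set and that of Rac3 were the 2 of 16 whose Deaf-1 and control arrays did not overlap, where 18.9% of all probe sets did not. The probe sets of Cdc42 above background thus had mean differences of -0.018, -0.073 and -0.19, and 1435807_at lay below background.

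Rhoj, a Cdc42 relative known from endothelial cells, read 9.22 (E1) and 9.02 (C1) with Deaf-1, against 9.19 (E1) and 8.64 (C1) in control cells. Nearly all of its mean difference of 0.21 came from C1 (0.38), with 0.035 in E1. Rhoq, known as TC10 and for its part in glucose transporter traffic in fat cells, read 10.07 (E1) and 9.74 (C1) with Deaf-1, against 9.84 (E1) and 9.67 (C1) in control cells. Its difference was 0.24 in E1 and 0.066 in C1. Rhou, an atypical member induced by Wnt signals, read 7.91 (E1) and 8.55 (C1) with Deaf-1, against 7.84 (E1) and 8.28 (C1) in control cells by 1449027_at, differences of 0.075 and 0.27. Its second probe set, 1449028_at, was lower in E1 (-0.14) and higher in C1 (0.26). Rhov, the closest relative of Rhou, lay below background on all 4 arrays.

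**Figure D2:**
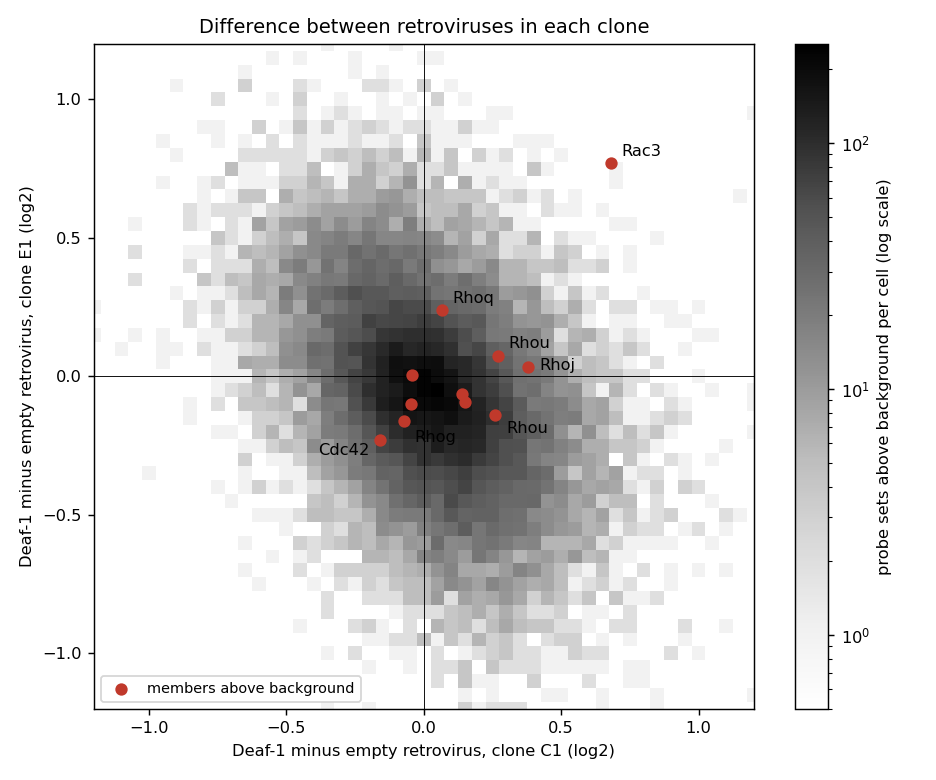
Difference between retroviruses (Deaf-1 minus empty, log2) in clone C1 (x axis) and clone E1 (y axis), with red points for the 11 member probe sets above background and grey cells for the number of probe sets above background (log scale). Rac3 lies in the upper right at 0.68 and 0.77, away from the other members and from most probe sets.

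Across the family, 7 of 16 probe sets (43.8%) had the same direction in both clones, 4 higher and 3 lower with Deaf-1, beside 39.4% of all probe sets. The median size of the difference was 0.0952 over the 16 probe sets, beside 0.0957 over all probe sets. Among the other members above background the largest leading mean difference was the 0.21 of Rhoj, which was -0.066 without the C1 control array and 0.48 without the E1 control array. That of Rhou ran from -0.14 without the C1 array with Deaf-1 to 0.49 without the E1 array with Deaf-1. That of Rac3 ran from 0.69 to 0.76 with 1 array left out, a narrow range that its choice on this contrast favoured. Over the 4 arrays, the 5 probe sets with a single symbol and a mean above background whose pattern lay closest to Rac3 were those of Egr1, an immediate early transcription factor, Aldoart2, H2-Ke6, Samd11 and Lin52, at distances of 0.21 to 0.23 on the log2 scale among 20575 candidates. Egr1 read 10.29 (E1) and 10.20 (C1) with Deaf-1, against 9.53 (E1) and 9.80 (C1) in control cells. Aldoart2 (3.66 in E1, 3.70 in C1) and Lin52 (3.74 in E1, 3.72 in C1) lay below background in control cells. Both passed the filter only through their Deaf-1 arrays. Samd11 also lay below background in E1 control cells, at 3.48. The nearest other member, Rhoq, was at a distance of 0.64. These distances rest on 4 arrays and describe likeness alone.

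The measured protein-coding genes beside Rac3 on its chromosome had no such difference in both clones. Upstream, Lrrc45 differed by 0.0021 in E1 and -0.083 in C1, Cenpx by -0.053 and 0.29, and Aspscr1 by -0.14 and 0.28. Downstream, Dcxr, a carbonyl reductase gene, differed by -0.24 in E1 and -0.027 in C1. Cbr2 lay below background, so the downstream side rests on Dcxr alone. By its leading probe set, none of these genes read higher in Deaf-1 cells of both clones. A second probe set of Aspscr1 was higher by 0.059 in E1 and 0.06 in C1.

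**Figure D3:**
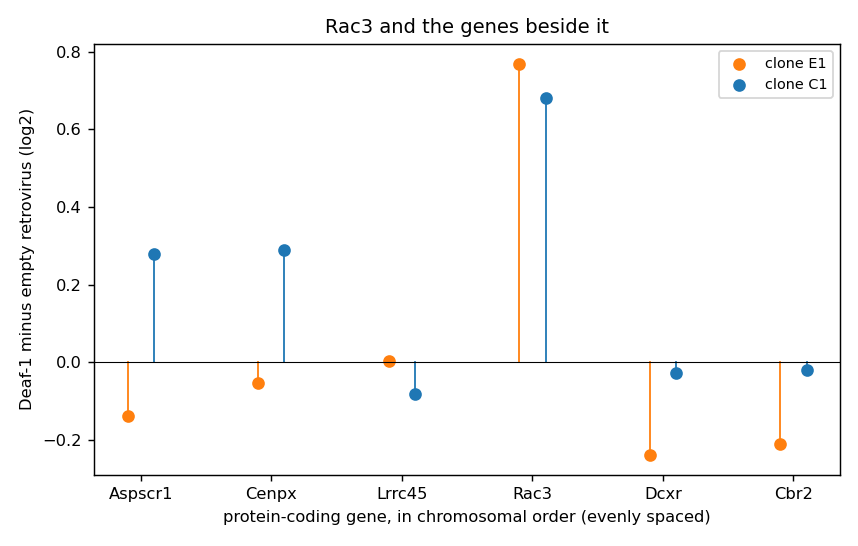
Difference between retroviruses (Deaf-1 minus empty, log2, y axis) in each clone for Rac3 and the measured protein-coding genes beside it, in chromosomal order at even spacing (x axis). Rac3, at 0.77 in E1 and 0.68 in C1, is the only gene of the row with both points well above 0.

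The clones, which the study treated as replicates, were compared with each other with retrovirus in the model. No member reached an adjusted p under 0.05 or an unadjusted p under 0.01 in limma's fit, over all 16 probe sets, and 1 reached an unadjusted p under 0.05. Among all probe sets, 0.109% reached the adjusted mark, 5.38% an unadjusted p under 0.01 and 14.4% an unadjusted p under 0.05, so that the family's counts were no higher than the background. That 1 was Rhou, which read 7.91 and 7.84 in E1 (Deaf-1 and control), against 8.55 and 8.28 in C1. Its difference of -0.54 ± 0.15 (SE), 1.45-fold lower in E1, had a 95% interval of -0.95 to -0.13 and an adjusted p of 0.242 by limma. Its second probe set differed by -0.33 in the same direction.

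Rac3 differed by -0.028 between E1 and C1, with an interval of -0.42 to 0.36 and an adjusted p of 0.972 by limma. Since consistency between the clones helped to choose Rac3, nothing is read from that test. Rhoj differed by 0.37 (interval -0.08 to 0.82, adjusted p = 0.424 by limma) and Rhog by 0.31 (interval -0.08 to 0.71, adjusted p = 0.44 by limma). For both, the E1 arrays stood above the C1 arrays, at 9.22 and 9.19 against 9.02 and 8.64 for Rhoj and at 7.82 and 7.98 against 7.55 and 7.62 for Rhog. The 3 Cdc42 probe sets above background differed by -0.18, -0.32 and -0.14, and the leading one of Rac1 by -0.19, with no unadjusted p under 0.05. In 9 of 16 member probe sets the clones did not overlap, 3 higher and 6 lower in E1, where 47.1% of all probe sets did not overlap. The median size of the clone difference was 0.22 over the 16 probe sets, beside 0.165 over every probe set, and 0.248 over the 7 leading probe sets above background, beside 0.25 over those of all genes.

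**Figure D4:**
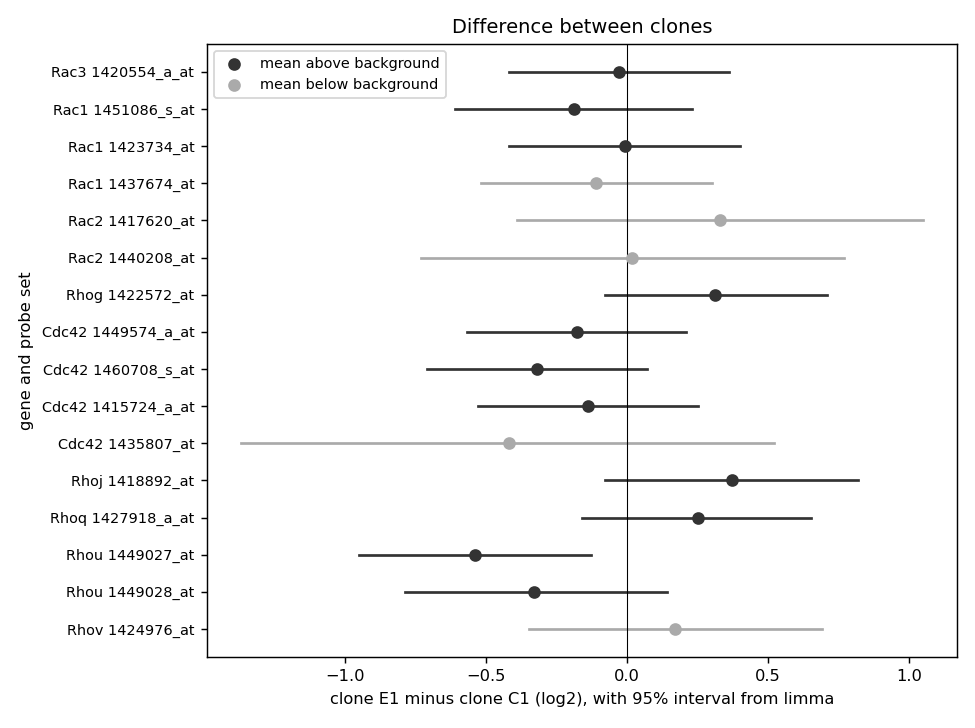
Difference between clones (E1 minus C1, log2, x axis) for the 16 member probe sets (y axis), with 95% intervals from limma and grey for those below background. The interval of Rhou 1449027_at, -0.95 to -0.13, is the one that does not reach 0.

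Genes that load, silence, hold or carry the signal of these GTPases were taken from 9 lists of 149 genes, of which 134 were measured and 106 lay above background. Between retroviruses, 0 of 134 reached an unadjusted p under 0.01 by limma, with or without clone as a block. Without the block 0.0275% of leading probe sets (5 of 18193) did. At an adjusted p under 0.05 stood 0, as over all 18193 genes, so neither count sets the lists apart. At an unadjusted p under 0.05 stood 1 gene, where 0.407% of leading probe sets (74 of 18193) did. That gene was Arhgap9, a GTPase-activating protein of blood cells, which read 4.93 (E1) and 4.92 (C1) with Deaf-1, against 4.54 (E1) and 4.46 (C1) in control cells (adjusted p = 1.0 by limma). Both Deaf-1 arrays stood above both control arrays, but its probe sets 1424249_a_at and 1436097_x_at differed by 0.067 and 0.10. Over the 134 genes, 53 had the same direction in both clones, beside 6885 of 18193 genes, and the median difference was -0.01, beside -0.0068.

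By role, none of the genes with the largest statistics between retroviruses passed. Among exchange factors, Fgd6, which acts on Cdc42, had differences of 0.56 in E1 and 0.76 in C1, with 3.96 (E1) and 4.74 (C1) with Deaf-1 against 3.40 (E1) and 3.97 (C1) in control cells. It reached an unadjusted p under 0.05 in limma's fit with clone as a block and not in that without it, and was not called in either. Its other probe set lay below background. Vav3, an exchange factor of Rac proteins, lay at background, with a mean difference of -0.43. Like Fgd6 it reached an unadjusted p under 0.05 only in limma's fit with the block. The share of all probe sets at that mark in the fit with the block was not counted, so nothing is read from either gene. Of the kinases, Limk1, which phosphorylates cofilin, differed by -0.22 and Pak4, a Cdc42 effector kinase, by 0.18. In each the retroviruses did not overlap, as in 1354 of 11873 leading probe sets above background. Another Limk1 probe set, 1425836_a_at, was higher in E1 (0.45) and lower in C1 (-0.74), and 1456234_at differed by -0.43. Of Arp2/3 subunits, Arpc5l differed by -0.25 and Arpc4 by -0.15, while the other Arpc5l probe set above background differed by 0.014. Arhgap22, a GTPase-activating protein of Rac, differed by 0.28. By their leading probe sets, the differences of Wipf1, Pggt1b, which prenylates these GTPases, Wipf2, Cdc42ep3 and Cib1 lay between -0.25 and 0.16.

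Between clones, 13 of the 134 reached an unadjusted p under 0.01, 6 higher and 7 lower in E1, where 6.95% of all leading probe sets did, and 1 reached an adjusted p under 0.05, where 0.176% did. Dock10, an exchange factor of Cdc42 and Rac, was that 1: it read 6.41 and 7.04 in E1 (Deaf-1 and control), against 2.85 and 2.92 in C1. Since C1 lay below background the difference is given as a bound, at least 7.73-fold higher in E1 when C1 is set at the background level, with an adjusted p of 0.0368 by limma. Its second probe set lay below background on all 4 arrays. This call rests on all 4 arrays. With any 1 left out a clone keeps a single array, so such a fit cannot decide on it.

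The remaining 12 genes at that mark had adjusted p-values of 0.0724 to 0.183 by limma and are given by role. Of the exchange factors, Dock1, a partner of Elmo downstream of Rhog, differed by 0.71, and by 0.91 in its other probe set. Tiam2, which activates Rac1, read 3.74 and 3.58 in E1 (Deaf-1 and control), below background, against 4.64 and 4.31 in C1, at least 1.62-fold lower in E1. Fgd6 differed by -0.68, with 1 of its E1 arrays below background. Of the GTPase-activating proteins, Arhgap24, which acts on Rac, differed by 0.77, though its other probe set differed by 0.066, and Srgap1, which acts on Cdc42, differed by -1.04, with -0.57 in its other probe set. Arhgdib, the dissociation inhibitor best known from blood cells, read 5.30 and 5.22 in E1 (Deaf-1 and control), against 6.79 and 6.83 in C1, 2.94-fold lower in E1. Hace1, a ubiquitin ligase that marks active Rac1 for turnover, differed by -0.82. Its E1 arrays, at 3.77 and 3.95, lay close to the background level, and its other probe set lay below it.

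Among effectors, Cdc42ep5, a Borg protein bound by Cdc42, read 7.83 and 7.76 in E1 (Deaf-1 and control), against 6.42 and 6.16 in C1, 2.84-fold higher in E1, while its other probe set differed by 0.22. Pard6g, which ties Cdc42 to the polarity complex, differed by 1.02 and by 1.23 in its other probe set. Wasf1, a WAVE protein that links Rac to actin branching, read 6.59 and 6.91 in E1 (Deaf-1 and control), against 8.18 and 7.83 in C1, a difference of -1.25. Wipf2, a partner of WASP proteins, differed by -0.77 and, in its other probe set, by -0.41. Actr3, the Arp3 subunit of the Arp2/3 complex, differed by 0.73, 0.71 and 0.76 in its 3 probe sets, each at an unadjusted p under 0.01 by limma.

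By list, the genes at an unadjusted p under 0.01 were 2 higher and 2 lower of 36 exchange factors, 1 and 1 of 20 GTPase-activating proteins, and 0 and 2 of 7 genes for dissociation inhibition, prenylation and turnover. They were 0 and 2 of 17 WASP and WAVE genes, 1 and 0 of 6 Arp2/3 subunits, and 2 and 0 of 16 Borg, polarity and scaffold effectors. No kinase effector (16 genes) or oxidase subunit (5) reached that mark in limma's fit, while 3 kinases and 0 oxidase subunits reached an unadjusted p under 0.05. At that mark stood 32 of the 134 genes, where 17.9% of leading probe sets (3263 of 18193) did, so 3 of 16 kinases is near the background. The kinases were Tnk2 (-0.61), Pak2 (-0.64) and Map3k10 (0.47). A second probe set of Pak2 differed by -0.83, at an unadjusted p under 0.01 by limma. Of the genes next in line, Arpc2 differed by 0.66 and Arpc5 by 0.56, both Arp2/3 subunits, Wasf2, another WAVE gene, by -0.72, and Arhgap17 by 0.56, with -0.14 in its other probe set above background. Icmt, which methylates prenylated GTPases, differed by -0.46, Pard6a by -0.46, and the oxidase subunits Cyba by -0.17 and Noxo1 by -0.0092. The median over the 134 genes was -0.026, beside 0.016 over all genes.

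**Figure D5:**
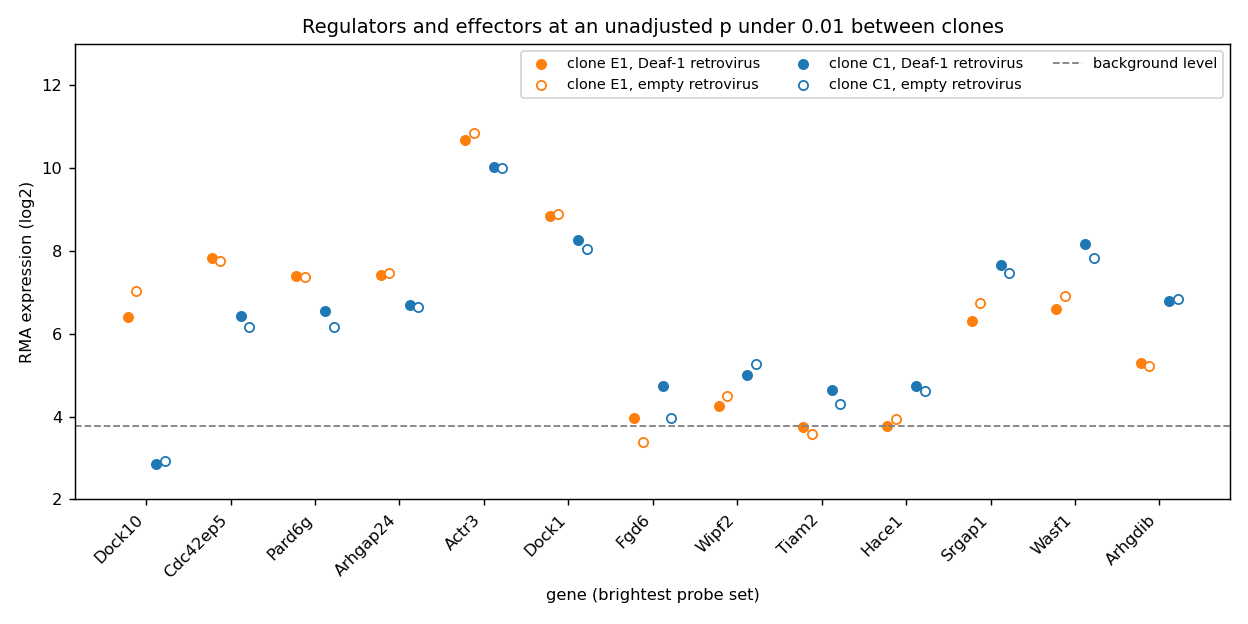
RMA expression (log2, y axis) on each array of the 13 regulators and effectors at an unadjusted p under 0.01 between clones (x axis, ordered by E1 minus C1), with clone E1 in orange on the left and clone C1 in blue on the right, filled for the Deaf-1 and open for the empty retrovirus; the dashed line is the background level of 3.774. Dock10 is apart from background in E1 at 6.41 and 7.04 and below it in C1.

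Markers of other cell types were set beside the clone differences. Summed linear levels of the 8 endothelial markers were 238 and 227 in E1 (Deaf-1 and control), against 190 and 160 in C1, with Tek, Kdr and Cldn5 above background by their means and the other 5, among them Pecam1 and Cdh5, below it. Tek read 7.28 and 7.29 in E1, against 6.93 and 6.38 in C1. Those of the 6 fibroblast markers were 32500 and 30400 in E1, against 29000 and 27900 in C1, and those of the 6 basal markers 3010 and 2900 in E1, against 3530 and 3730 in C1. The fibroblast sum follows its collagens: Lum read 3.57 and 4.26 in E1, against 6.94 and 6.52 in C1, and Dcn 10.67 and 10.67 in E1, against 10.89 and 10.90 in C1. The basal sum follows Acta2, which read 11.51 and 11.46 in E1, against 11.75 and 11.83 in C1. Far dimmer, Krt5 read 4.74 and 4.45 in E1, against 4.57 and 4.49 in C1. Summed levels of the 6 luminal markers ranged from 109 to 131 in E1, against 116 to 135 in C1. The 9 haematopoietic markers, with Csf1r, Laptm5 and Fcer1g above background and the other 6, among them Ptprc and Coro1a, below it, summed to between 158 and 182 in E1, against 147 to 181 in C1, and the 8 neuronal ones to between 126 and 168 in E1, against 120 to 124 in C1. The part of these marker levels in the clone differences was not tested. Set within clones, 3 of the 6 sums were higher with Deaf-1 in both clones, though not all genes of those lists were. The fibroblast sum was 32500 and 29000 (E1 and C1) with Deaf-1, against 30400 and 27900 in control cells. The endothelial sum was 238 and 190 with Deaf-1, against 227 and 160 in control cells, and the neuronal sum 168 and 124 with Deaf-1, against 126 and 120 in control cells. Their part in the differences between retroviruses was not tested. The luminal, basal and haematopoietic sums were higher with Deaf-1 in E1 and lower in C1.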

How the data were processed

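Total RNA of 2 clones with 2 retroviruses was labelled with biotin and hybridised to 4 Affymetrix mouse arrays, 1 per clone and retrovirus. The values deposited by the authors are log2 expression made by RMA, and the submitters' processing notes name RMA and limma; their versions are not given in the sources used here. RMA brings arrays to a common distribution, so a shift common to all probes would not show. Of 45101 probe sets, 64 controls were left out and none was filtered. Of the rest, 34945 had 1 symbol, 932 several and 9160 none; only those with 1 symbol were named.

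All 45037 probe sets were fitted in R 4.3.3 with limma 3.58.1 (lmFit, then eBayes), two-sided, with neither trend nor robust prior and with Benjamini-Hochberg adjustment over all of them. Deaf-1 was compared with control with retrovirus as the only term, since the study took the clones as replicates, and genes were called at an unadjusted p under 0.01. Clone E1 was compared with clone C1 with clone and retrovirus as terms and genes were called at an adjusted p under 0.05, with those at an unadjusted p under 0.01 beside. The residual degrees of freedom were 2 and 1, to which limma added 2.56 and 3.21 shared by all probe sets. Array number and signal over background, not counting depth, limit the precision. The replicate numbers stand for the same 2 clones in both groups, and deviations of same-clone arrays correlated at 0.54, so clone as a block was an alternative. The step was tested on simulated data.

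The members and lists were chosen with earlier results of these data known. The text names all members, Deaf1, the neighbours of Rac3, the 5 probe sets nearest to Rac3 in Euclidean distance after centring, and from each list genes above background: up to 3 with the largest moderated t between clones and up to 2 with the largest between retroviruses among those moving alike in both clones. All 13 genes at an unadjusted p under 0.01 between clones were also named, after their values were seen. Of 149 listed genes, 15 without a probe set of a single symbol, among them Pak1, Arhgdia and Actr2, are not analysed here. Counts and genes of 1 of the lists are left out of the text. Protein sequences were not used here. Neighbours and promoters came from RefSeq tables. Alternatives were cyclic loess, median centring or a further quantile normalization, a background filter, the mean of a gene's probe sets, a trend or robust prior, the block or the retrovirus term left out, and each array left out.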

Additional observations from a re-analysis of the deposited data

Results flagged for a closer look

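For 4 members the leading probe set moved one way in clone E1 and the other way in clone C1, and in none was the difference between the clones' changes tested. The change with Deaf-1 in E1 minus that in C1 was -0.24 on the log2 scale for Rac1, with -0.094 in E1 and 0.15 in C1. It was 0.046 for Cdc42, with 0.0052 in E1 and -0.041 in C1. Rac2 (0.91) and Rhov (0.52) lay below background on all 4 arrays.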

How the results depend on the processing

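The Rac3 difference between retroviruses stayed between 0.69 and 0.76 on the log2 scale under every alternative run, and is a description. No member reached an adjusted p under 0.05 between clones under any of them, and 1 member probe set, that of Rhou, reached an unadjusted p under 0.01 once the prior followed an intensity trend. The difference of Rac3 between clones, E1 minus C1, turned to 0.054 after quantile normalization and 0.0026 after cyclic loess, and ran from -0.41 to 0.36 with 1 array left out. Pathway genes with an adjusted p under 0.05 between clones, 1 in the fit reported, numbered 5 after quantile normalization, 6 after median centring and 5 after cyclic loess. They numbered 3 among probe sets above background, 3 with a gene's probe sets averaged, 13 with the trend and 13 without the retrovirus term. Dock10 was among them in every setting with such a gene. Those at an unadjusted p under 0.01, 13 in the fit reported, numbered 21 after quantile normalization, 25 without the retrovirus term and 8 to 13 with 1 array left out. The counts rose over all probe sets too, with 49 at the adjusted mark in the fit reported and 2306 without the retrovirus term. The cause was not tested. With clone as a replicate block, 0 pathway genes were called between retroviruses, as without it, while 11 probe sets were called in all, against 5. No other count of calls was run with the block.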
